A study of Homo sapiens with 6 samples.

Results

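Zinc transporter and metallothionein genes were examined in Huh7 cells, a human hepatoma line, after overexpression of the circular RNA hsa_circ_0098181. The group holds 33 of the 50868 genes in the deposited table: 14 ZIP importers (SLC39A1 to SLC39A14), 10 ZnT exporters (SLC30A1 to SLC30A10), 8 metallothioneins and the zinc sensor MTF1. It was selected on the counts of SLC39A1, which were lower in the overexpressing cells, so the SLC39A1 values are a description, and the question was whether the other zinc genes moved with it. All 33 were found by their gene symbol, and 25 of them had enough reads to be tested. SLC39A1 counts were lower in every overexpression library than in every control library, at a 2.73-fold difference, while none of the other 24 tested zinc genes passed an adjusted p of 0.05 in edgeR's quasi-likelihood test, and 2 of 24 had an unadjusted p under 0.05. Over all genes tested these shares were 0.0399% and 5.5%. The levels of the tested metallothioneins and of SLC30A1, genes that zinc is known to induce, overlapped between the groups. Most genes did so, as the groups failed to overlap for 12.9% of all genes tested, and zinc itself was not measured.

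The study compared 3 libraries from Huh7 cells given the hsa_circ_0098181 overexpression plasmid with 3 libraries from Huh7 cells given the control plasmid. Both plasmids were delivered with Lipofectamine 2000 and total RNA was taken at 48 h, so both groups carry the transfection itself. What the control plasmid encodes and whether the 3 libraries of a group came from separate cultures are not given in the sources used here, and p-values measure only the spread between these libraries, which may be technical. The results hold for a single hepatoma line with a transient plasmid, in which an unknown share of cells took up the DNA.

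Libraries held 11130902 to 14138262 gene counts. Levels are given as CPM, the counts scaled to a common library size, and single values always stand in the order of replicates 1, 2 and 3. SOX5, the gene from which hsa_circ_0098181 is spliced, stood at 1905, 2396 and 2012 CPM with overexpression and at 41.8, 34.4 and 31.3 CPM in the controls, which matched the labels, although gene counts do not separate the circular from the linear transcript. The hepatoma markers ALB (4365 to 5843 CPM) and AFP (10801 to 13276 CPM) were high in all libraries. Of the endothelial markers, CDH5 was at 0 in all 6 libraries and VWF did not exceed 0.085 CPM, while PECAM1 was at 46.9 to 59.1 CPM. Of the blood cell markers, PTPRC was at 0.77 to 1.86 CPM, CD68 at 6.64 to 12.8 CPM and LYZ at 424 to 521 CPM. Of the stromal markers, COL1A1 stayed under 0.99 CPM, COL1A2 was at 5.35 to 10.3 CPM and PDGFRB at 3.28 to 5.66 CPM. The part of other cell types in the results was not tested. Control replicate 1 stood apart with 9.29% of its counts from mitochondrial genes, against 6.32% to 7.04% in the other libraries. Values without it are given for importers and exporters whose log2 fold change moved toward 0 by over 1.5 times when it was left out.

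Zinc is a cofactor of many enzymes and of zinc finger proteins, and free zinc is kept very low inside cells. ZIP proteins, encoded by the SLC39 genes, move zinc into the cytosol from outside or from organelles, and ZnT proteins, encoded by the SLC30 genes, move it out of the cytosol. Metallothioneins are small cysteine-rich proteins that bind zinc and copper, and are abundant in liver under metal load, glucocorticoids and stress. MTF1 is a transcription factor that binds zinc through its zinc fingers, enters the nucleus and turns on metallothionein genes and SLC30A1 through metal response elements in their promoters.

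The 8 metallothionein genes of the group lie together on chromosome 16 of GRCh38, where the first, MT2A, starts at 56608199 and MT1X ends at 56684196, and in the table MT1A runs on to 56750276. The promoters of MT2A, MT1H, SLC30A1 and SLC39A1 are shown because they set the established zinc-responsive genes beside the gene on which the group was chosen. Each is 300 bases from RefSeq (GRCh38.p14), 250 before and 50 after an annotated start, written 5′ to 3′ on the strand of the gene, with the core of the metal response element in capitals. The core was searched as TGCACNC or TGCGCNC on both strands, so it also appears as its reverse complement, and overlapping matches were counted separately.
MT2A, chr16:56608334-56608633, plus strand: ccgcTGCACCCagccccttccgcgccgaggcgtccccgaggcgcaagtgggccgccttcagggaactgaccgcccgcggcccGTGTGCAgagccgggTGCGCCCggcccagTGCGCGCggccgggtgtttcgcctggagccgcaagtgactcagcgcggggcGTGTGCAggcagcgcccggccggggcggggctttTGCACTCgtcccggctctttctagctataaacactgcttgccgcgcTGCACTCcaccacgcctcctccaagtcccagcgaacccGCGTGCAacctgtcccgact
MT1H, chr16:56669564-56669863, plus strand: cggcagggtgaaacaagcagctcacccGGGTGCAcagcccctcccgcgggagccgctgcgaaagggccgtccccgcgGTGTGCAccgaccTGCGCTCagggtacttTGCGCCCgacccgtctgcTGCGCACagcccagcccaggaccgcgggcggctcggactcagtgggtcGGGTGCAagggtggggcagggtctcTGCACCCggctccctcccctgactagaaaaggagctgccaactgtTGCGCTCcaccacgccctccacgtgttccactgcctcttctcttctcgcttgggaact
SLC30A1, chr1:211579112-211579411, minus strand: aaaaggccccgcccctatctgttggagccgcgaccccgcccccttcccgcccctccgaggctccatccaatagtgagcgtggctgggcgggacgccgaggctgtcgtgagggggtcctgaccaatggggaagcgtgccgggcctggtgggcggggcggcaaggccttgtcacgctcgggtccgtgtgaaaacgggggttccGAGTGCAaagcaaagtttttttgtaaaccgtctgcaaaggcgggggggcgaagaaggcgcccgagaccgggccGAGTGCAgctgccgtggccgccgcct
SLC39A1, chr1:153963488-153963787, minus strand: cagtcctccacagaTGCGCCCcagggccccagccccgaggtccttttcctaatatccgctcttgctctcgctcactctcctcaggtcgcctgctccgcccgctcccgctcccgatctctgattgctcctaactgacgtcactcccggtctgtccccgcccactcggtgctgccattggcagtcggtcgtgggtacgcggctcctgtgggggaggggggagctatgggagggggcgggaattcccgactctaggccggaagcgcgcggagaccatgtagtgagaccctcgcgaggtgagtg

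A RefSeq promoter was found for 3 of the 8 metallothioneins. Of these, MT2A and MT1H each held 8 matches to the core and MT1X held 4. Over all 35116 windows of 300 bases, 29.55% held at least 1 match, 8.6% at least 2, 2.3% at least 3 and 0.16% at least 5. SLC30A1 held 2, both on the strand opposite to the gene. A RefSeq promoter was found for 12 of the 14 importers, some with several starts, and 7 of their 19 windows (36.8%) held a match, none more than 1. Of the 11 windows of the 9 exporters matched, 6 (54.5%) held a match, and SLC30A2 had the most with 3. SLC39A1 had 1 match in the window shown and 0 in the window of its other annotated start (chr1:153968135-153968434), and the MTF1 window held 0. These are letter matches and no measure of binding.

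SLC39A1 (ENSG00000143570) encodes ZIP1, a zinc importer of the plasma membrane. The gene lies on the minus strand of chromosome 1 from 153959099 to 153968184 (GRCh38). It had 561, 526 and 599 counts with overexpression and 1021, 1364 and 1603 counts in the controls. In CPM the values were 39.7, 37.5 and 48.4 against 94.2, 116 and 132, with means of 41.9 ± 5.75 and 114 ± 18.9 (SD, n = 3 each). The highest overexpression value was below the lowest control value, and the log2 fold change was -1.45. In bulk RNA, a lower level in all cells and a loss in some cells cannot be told apart.

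Of the 2674 stretches of 50 bases in the principal SLC39A1 transcript, 0 occur in another gene of the table. Its span does overlap CREB3L4, RP11-422P24.12 and RP11-422P24.10, and whether strand was used in counting is not given in the sources used here. These genes added 11.2% to its counts, and the sum of all 4 genes had a log2 fold change of -1.27. Most of that sum is SLC39A1 itself, so this value too is a description.

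The groups overlapped at the neighbours of SLC39A1. Of the genes within 50 kb, GATAD2B, DENND4B, CRTC2, CREB3L4, JTB, RAB13, RPS27 and the low-count RP11-422P24.11 could be tested. By edgeR 0 of these 8 were called, with adjusted p-values of 0.797 and above. Beside this, 0.0399% of all genes tested were called and 12.9% had groups that did not overlap, so most genes would look like these 8. CRTC2, a coactivator of CREB next to SLC39A1, was at 61.7 ± 0.85 CPM in overexpression and 63.0 ± 6.86 CPM in control libraries. CREB3L4, a transcription factor gene that overlaps the upstream end of SLC39A1, was at 7.93 ± 0.62 and 7.57 ± 0.84 CPM. JTB, beyond CREB3L4, was at 43.6 ± 0.28 and 40.0 ± 9.17 CPM. Among the genes plotted by position, the groups were separate at SLC39A1 and overlapped at the others. SLC39A1 was chosen for its lower counts, so this contrast is a description.

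**Figure D1:**
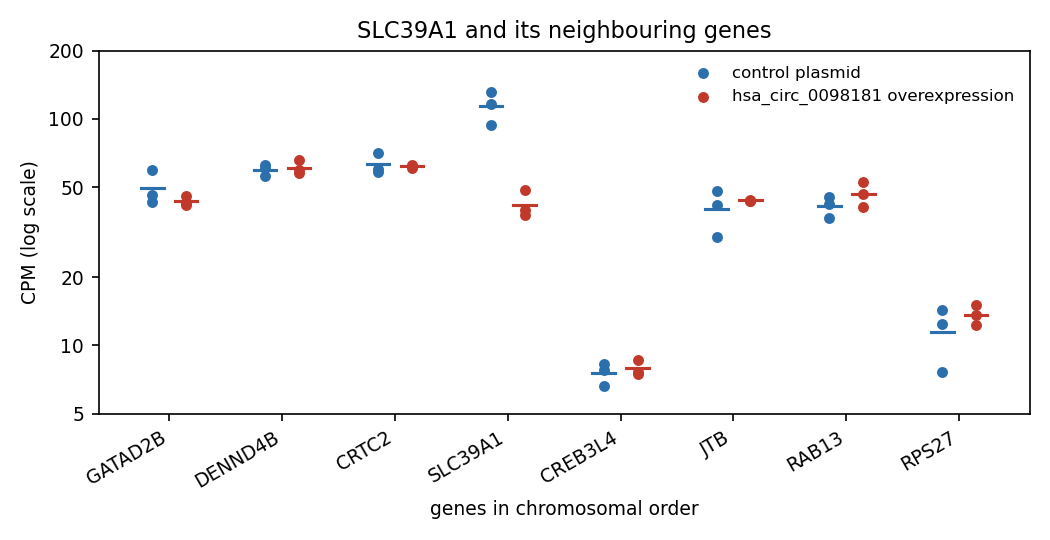
CPM (log scale) of SLC39A1 and 7 tested neighbours, in chromosomal order, with a point for each library and a bar at the mean of each group (n = 3). The SLC39A1 points of the overexpression libraries lie at 37.5 to 48.4 CPM, below the control libraries at 94.2 to 132 CPM, and the groups overlap at every neighbour.

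Of the importers tested besides SLC39A1, none was called. By edgeR, with p-values adjusted after Benjamini and Hochberg over the 15055 genes tested, 6 genes (0.0399%) were called, and of the 24 zinc genes tested besides SLC39A1 0 were called. DESeq2 called 0 of the 24 as well, and the count by edgeR was also 0 without control replicate 1. Adjusted p-values of these 24 ran from 0.797 to 0.999. At an unadjusted p under 0.05 there were 2 of 24 (8.33%), beside 5.5% of all genes tested. The 24 were evenly divided, with 12 higher and 12 lower in the overexpression libraries, and their median log2 fold change was 0.0068, beside 0.0023 over all genes. The 95% interval of the fold change lay within 2-fold in either direction for 22 of the 24 and within 1.5-fold for 18.

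The groups did not overlap for 5 of the 24 (20.8%), beside 12.9% of all genes tested. Higher in all overexpression libraries were SLC39A5, SLC39A8, SLC39A14 and SLC30A3 (4 of 24, beside 6.4% of all genes). Lower in all of them was MTF1 (1 of 24, beside 6.5%). None of these 5 passed the adjusted threshold.

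**Figure D2:**
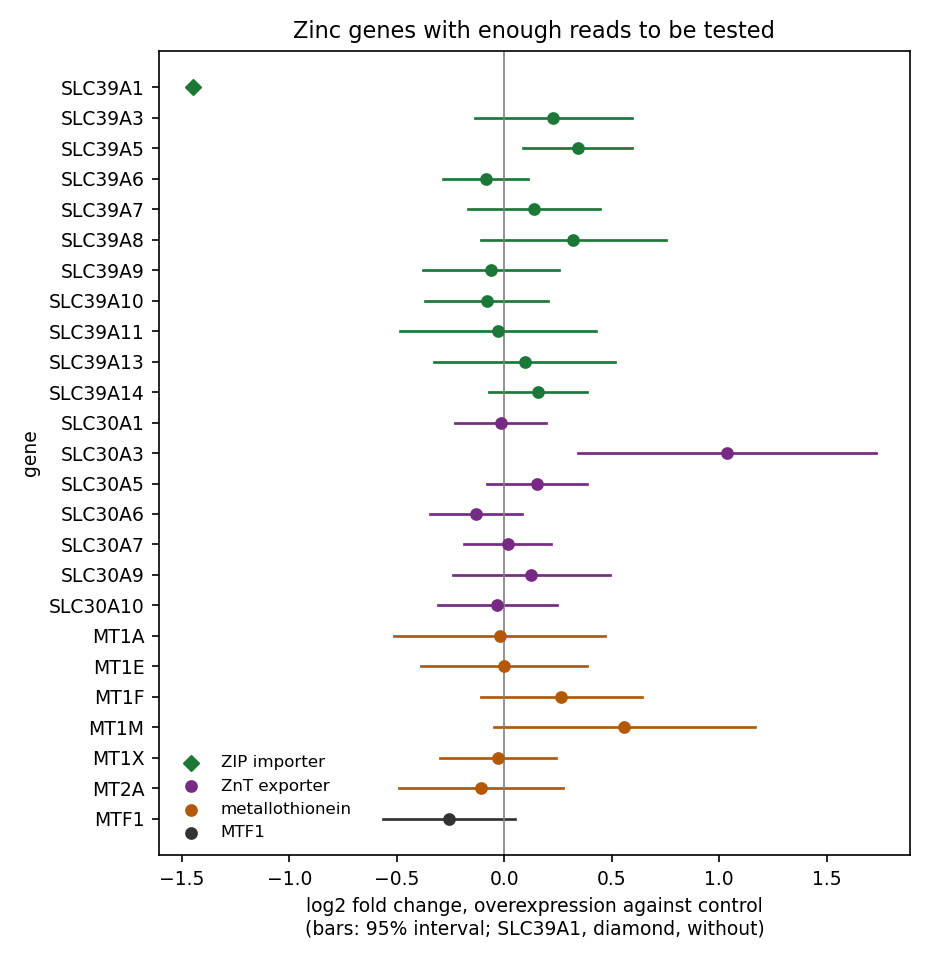
Log2 fold change of overexpression against control libraries for the 25 zinc genes tested, coloured by role, with bars for the 95% interval from edgeR. SLC39A1 (diamond, no interval, since it chose the group) is at -1.45, and the intervals of the other genes include 0 except for SLC39A5 and SLC30A3, whose adjusted p was 0.797.

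Among the importers, SLC39A14 encodes ZIP14, a hepatocyte carrier of zinc, iron and manganese that is induced in inflammation, and it had the most reads. Its values were 481, 487 and 514 CPM with overexpression and 387, 468 and 473 CPM in the controls. The groups were separate by a narrow gap, at 494 ± 17.5 and 443 ± 48.2 CPM (log2 fold change 0.16, SE 0.10, edgeR adjusted p = 0.797). Without control replicate 1 the log2 fold change was 0.073.

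SLC39A5 encodes ZIP5, a basolateral importer of hepatocytes, pancreas and gut. It was at 49.2, 48.8 and 49.6 CPM with overexpression and at 34.1, 43.0 and 39.4 CPM in the controls. All overexpression values were above all control values, with means of 49.2 ± 0.40 and 38.8 ± 4.51 CPM. The log2 fold change was 0.34 (SE 0.11, 95% interval 0.089 to 0.59), with an edgeR p of 0.014 before and 0.797 after adjustment, and 0.26 without control replicate 1. The end of SLC39A5 overlaps ANKRD52, which was at 71.8 CPM in overexpression replicate 1 and at 245 to 267 CPM in the other 5 libraries. SLC39A5 was level over the overexpression libraries. Whether ANKRD52 reads enter the SLC39A5 counts was not tested.

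SLC39A8 encodes ZIP8, which carries manganese as well as zinc and whose loss in people causes manganese deficiency. Its values were 48.5, 46.7 and 49.9 CPM against 45.1, 26.7 and 44.3 CPM. Control replicate 2 was the low library, and the other controls were close to the overexpression libraries. The log2 fold change was 0.32 (SE 0.19, edgeR adjusted p = 0.797) and 0.11 without control replicate 2. Leaving out each library in turn gave 0.11 to 0.45.

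The other 7 tested importers overlapped between the groups. SLC39A7 encodes ZIP7, which releases zinc from the endoplasmic reticulum, and was at 225 ± 11.6 and 204 ± 36.7 CPM. SLC39A9 encodes ZIP9, of the Golgi and plasma membrane, and was at 108 ± 12.8 and 112 ± 17.2 CPM. SLC39A6 and SLC39A10 encode the closely related ZIP6 and ZIP10, and had log2 fold changes of -0.086 (SE 0.086) and -0.081 (SE 0.12). SLC39A3, SLC39A11 and SLC39A13 had log2 fold changes of 0.23 (SE 0.16), -0.029 (SE 0.20) and 0.094 (SE 0.18). Without control replicate 1 the log2 fold changes were 0.073 for SLC39A3, -0.00049 for SLC39A7 and -0.029 for SLC39A9, and SLC39A10 turned to 0.024. SLC39A3 encodes ZIP3, and 26.6% of the stretches of 50 bases in its transcript are shared with the overlapping gene AC006538.4, which held at most 4 counts in a library.

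SLC39A2, SLC39A4 and SLC39A12 had too few reads to be tested. SLC39A2 had 0 to 2 counts in a library and SLC39A4, the intestinal importer mutated in acrodermatitis enteropathica, had 2 to 6. SLC39A12 had 0 counts in all 6 libraries. That allows up to 3 counts in each, or 0.212 to 0.277 CPM, where this limit covers counting error only.

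The summed CPM of the 14 importers was 1127 ± 40.6 in overexpression and 1113 ± 101 in control libraries, and the groups overlapped. Without SLC39A1 the sums were 1050, 1086 and 1122 CPM against 902, 1055 and 1039 CPM, again with overlap. SLC39A1 made up 3.65%, 3.34% and 4.14% of the importer counts with overexpression and 9.45%, 9.92% and 11.3% in the controls. These are shares of reads and not of molecules, since they are not divided by length.

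Per kilobase of the principal transcript, the control libraries ranked the zinc genes in the order MT2A (109 ± 23.0 CPM per kb), SLC39A14 (95.4 ± 10.4), SLC39A7 (84.8 ± 15.2), MT1X (63.0 ± 5.77), MT1E (56.9 ± 10.9) and SLC39A1 (41.9 ± 6.95). Neighbours in this order overlapped in their control values, except MT1E and SLC39A1. SLC39A1 was 6th of 25 in the control libraries and 12th of 25 in the overexpression libraries, at 15.4 ± 2.11 CPM per kb. The order depends on which length is used, and over merged exons the control means ran from SLC39A7 (71.8 CPM per kb) to MT2A (65.8) and SLC39A14 (63.8), with SLC39A1 ranked 5 of 25 (33.7).

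**Figure D3:**
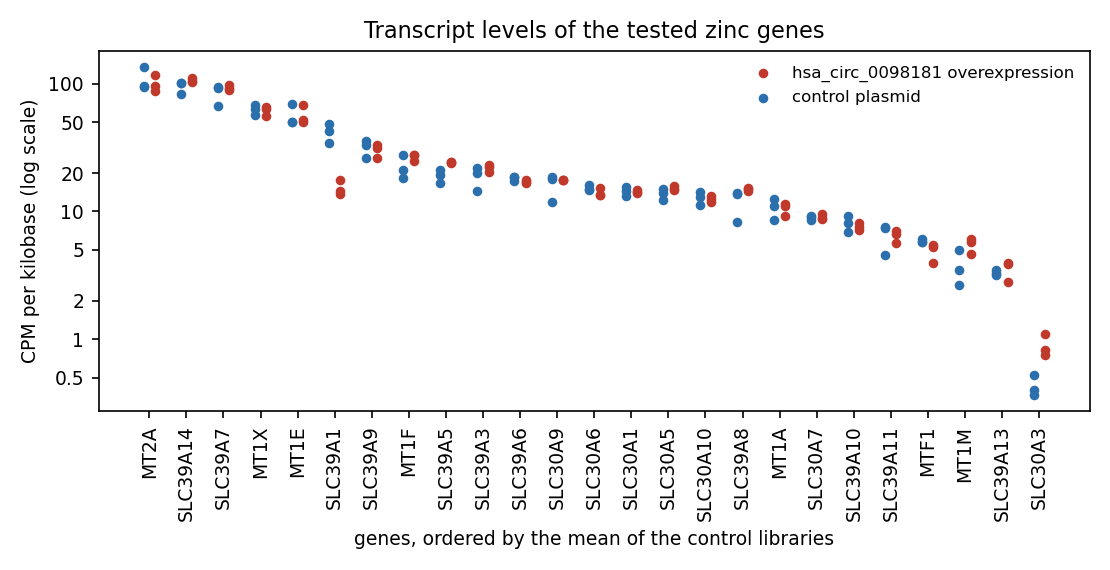
Level of each tested zinc gene as CPM per kilobase of its principal transcript (log scale), with a point for each of the 3 control and 3 overexpression libraries, in the order of the control means. The points of SLC39A1 lie at 15.4 ± 2.11 with overexpression and 41.9 ± 6.95 in the controls. The groups are also separate at SLC39A5, SLC39A8, SLC39A14, MTF1 and SLC30A3, which is at the lowest level.

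Among the exporters, SLC30A1 encodes ZnT1, the plasma membrane exporter that MTF1 induces when zinc rises. It was at 77.2, 76.9 and 80.8 CPM with overexpression and at 79.4, 73.0 and 85.3 CPM in the controls. The control values ran from below to above all overexpression values. The log2 fold change was -0.017 (SE 0.093, 95% interval -0.23 to 0.20, edgeR adjusted p = 0.976), and as a fold change the interval ran from 0.853 to 1.14.

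SLC30A3 encodes ZnT3, which loads zinc into synaptic vesicles of neurons. It had 35, 26 and 21 counts with overexpression and 9, 14 and 11 counts in the controls. The groups did not overlap, at 2.01 ± 0.41 and 0.98 ± 0.19 CPM, and this was the highest fold change of the 24 (log2 1.04, SE 0.30, 95% interval 0.34 to 1.73). The edgeR p was 0.0084 before and 0.797 after adjustment, and the gene was the lowest of the 25 tested in CPM per kilobase.

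The other 5 tested exporters overlapped between the groups. SLC30A5, SLC30A6 and SLC30A7, which encode the ZnT5, ZnT6 and ZnT7 transporters of the secretory pathway, had log2 fold changes of 0.15 (SE 0.10), -0.13 (SE 0.093) and 0.016 (SE 0.088). Without control replicate 1 that of SLC30A5 was 0.082. SLC30A9, a mitochondrial zinc transporter gene, was at 110 ± 0.64 and 101 ± 23.0 CPM, with control replicate 3 low at 74.1 CPM. SLC30A10, which exports manganese from hepatocytes in spite of its family name, was at 24.1 ± 1.33 and 24.6 ± 2.77 CPM. SLC30A2 and SLC30A8, the exporter of pancreatic beta cells, had 0 counts in all libraries, and SLC30A4 had 1 to 10. The summed CPM of the exporters was 424 ± 0.59 and 415 ± 17.7, with overlap.

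No metallothionein was called, and all 6 tested overlapped between the groups. Over all genes tested, 0.0399% were called and 12.9% had groups that did not overlap. MT2A, the main metallothionein of liver, was at 92.8, 75.3 and 69.6 CPM with overexpression and at 74.8, 75.2 and 106 CPM in the controls. The highest values were in control replicate 3 and overexpression replicate 1, in different groups. The means were 79.2 ± 12.1 and 85.4 ± 18.1 CPM (log2 fold change -0.11, SE 0.17, 95% interval -0.49 to 0.27, edgeR adjusted p = 0.899).

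MT1E was also highest in control replicate 3 and overexpression replicate 1, at 47.7, 36.7 and 35.6 CPM against 35.5, 35.7 and 48.9 CPM. Its log2 fold change was -0.0019 (SE 0.17, 95% interval -0.39 to 0.38, edgeR adjusted p = 0.999). MT1X was at 29.5, 28.5 and 25.3 CPM against 25.7, 28.4 and 30.9 CPM, with full overlap (log2 fold change -0.030, SE 0.12, edgeR adjusted p = 0.966). MT1X shares 43.9% of its stretches of 50 bases with other genes of the table, the most of the 33. How the authors' counting divided such reads is not given in the sources used here.

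MT1F was at 18.5 ± 1.16 and 15.4 ± 3.28 CPM and MT1M at 4.55 ± 0.65 and 3.07 ± 0.96 CPM, and both overlapped between the groups. The MT1M log2 fold change was 0.56 (SE 0.27), with an edgeR p of 0.067 before and 0.797 after adjustment. MT1A was at 4.18 ± 0.44 and 4.23 ± 0.77 CPM, and in the table its span extends over MT1F, MT1G, MT1H, MT1X and part of NUP93, so its reads are uncertain. MT1G had 4 counts in overexpression replicate 2 and 0 in the other libraries, and MT1H had 1 count in control replicate 3 and 0 in the others. MT2A and MT1H have 8 core matches each in the promoters shown above, and had the most and the fewest reads of the 8.

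The summed metallothionein CPM was 197, 167 and 159 with overexpression and 156, 159 and 214 in the controls. In all 6 metallothioneins tested, control replicate 3 was the highest control. The summed counts of the 16 metallothionein genes and pseudogenes followed here had a log2 fold change of -0.022 (SE 0.14). The sum does not depend on how reads were divided among these 16, but reads dropped or counted in other genes are not in it.

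**Figure D4:**
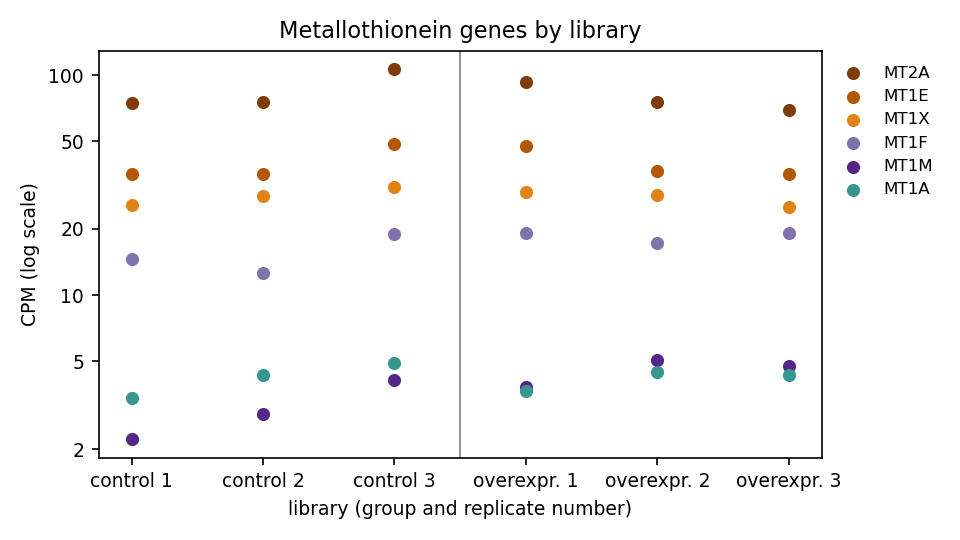
CPM (log scale) of the 6 tested metallothionein genes in each library, control libraries left of the line and overexpression libraries right. MT2A and MT1E are highest in control replicate 3 and overexpression replicate 1 (106 and 92.8 CPM for MT2A), and every gene overlaps between the groups.

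MTF1, the zinc sensor, was at 31.6, 43.2 and 42.3 CPM with overexpression and at 48.5, 45.9 and 45.6 CPM in the controls. All overexpression values were below all control values, but 2 of them were close to the controls and replicate 1 was low. The means were 39.1 ± 6.49 and 46.7 ± 1.62 CPM, a log2 fold change of -0.26 (SE 0.13) with an edgeR p of 0.0896 before and 0.797 after adjustment. Leaving out overexpression replicate 1 moved the log2 fold change to -0.13, and leaving out each library in turn gave -0.34 to -0.13.

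Genes around zinc handling were read from 4 lists with 66 symbols, of which 54 were in the table and 43 could be tested. By edgeR 0 of the 43 were called at an adjusted p under 0.05 and 4 had an unadjusted p under 0.05 (9.30%), beside 0.0399% and 5.5% of all genes tested, and their median log2 fold change was 0.0041. All 4 were among the 14 genes of the list of stimuli that induce metallothioneins. Of the 16 genes that handle copper, manganese and other divalent metals, 9 were higher and 7 lower, with a median of 0.036 and 0 at an unadjusted p under 0.05. The highest of them in CPM were ATP13A1, a transport ATPase of the endoplasmic reticulum, SLC31A1, the copper importer, and ATP2C1, a Golgi pump for calcium and manganese, and their log2 fold changes were -0.040 (SE 0.084), 0.013 (SE 0.097) and 0.060 (SE 0.090).

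Of 12 tested genes for zinc sensing, zinc chaperones and zinc-carrying proteins, 6 were higher and 6 lower, with a median of -0.0035. ALB, which carries most of the zinc in plasma, had a log2 fold change of 0.096 (SE 0.11). A2M, a protease inhibitor that also binds zinc, had -0.055 (SE 0.082). NT5E, a zinc-dependent ectoenzyme, had -0.037 (SE 0.12). Of the other metallothionein genes, MT1L alone could be tested, with a log2 fold change of -0.35 (SE 0.35).

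The list of genes that answer to glucocorticoids, oxidants and heavy metals, stimuli that also induce metallothioneins, held 14 tested genes with 7 higher and 7 lower. Its antioxidant genes NQO1, TXNRD1 and SRXN1, the highest in CPM, had log2 fold changes of 0.17 (SE 0.12), -0.25 (SE 0.21) and 0.0085 (SE 0.17). HMOX1, the heme oxygenase gene, was at 65.2, 59.8 and 56.5 CPM with overexpression against 47.8, 49.1 and 54.5 CPM in the controls. The groups did not overlap (log2 fold change 0.26, SE 0.10), with an edgeR p of 0.032 before and 0.797 after adjustment. Also without overlap, GCLC was lower (log2 fold change -0.18, SE 0.088) and TSC22D3 higher (0.20, SE 0.11). In this list 2 of 14 genes were higher and 4 lower without overlap, beside 6.4% and 6.5% of all genes tested.

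The heat shock genes HSPA1A, HSPA1B and DNAJB1, which encode an inducible HSP70 pair and its cochaperone, were lower. HSPA1A was at 38.9, 48.7 and 63.1 CPM with overexpression and at 116, 85.7 and 89.6 CPM in the controls, and the groups did not overlap. The log2 fold changes were -0.95 (SE 0.19), -0.62 (SE 0.11) and -0.63 (SE 0.14) for HSPA1A, HSPA1B and DNAJB1. By edgeR their adjusted p-values were 0.604, 0.506 and 0.797, so they were not called. DESeq2 called all 3, and over all 15055 genes tested it called 28, beside 6 by edgeR. The list that holds them was written with earlier results of these data known. HSPA1A and HSPA1B are near-identical copies, and how reads were divided between them is uncertain.

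The study follows the microRNA hsa-miR-18a-3p as a partner of hsa_circ_0098181, and its seed is shown because a site for it could be looked for in each zinc gene. In RefSeq the mature sequence, with bases 2 to 8 in capitals, is:
hsa-miR-18a-3p: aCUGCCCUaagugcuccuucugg

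A match to the seed, AGGGCAG, was searched in the annotated 3′ UTR of the longest coding transcript of each gene in GENCODE 29. It occurred in 6 of the 25 tested zinc genes (24.0%), beside 2377 of 12609 tested coding genes (18.9%). SLC39A1 had 0 matches in 988 bases. MTF1 had 3, SLC39A13 had 2, and SLC39A3, SLC39A9, SLC39A11 and SLC30A6 had 1 each. Log2 fold changes of these 6 ran from -0.26 for MTF1 to 0.23 for SLC39A3. A match is a description of the sequence and no measure of regulation.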

How the data were processed

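Total RNA from Huh7 cells was sequenced in 3 overexpression and 3 control libraries, grouped and numbered by their sample titles. For each gene and library the authors deposited 1 raw read count and, beside it, 1 FPKM value. The submitters' processing notes name TopHat2 2.0.9 and the hg38 build. The counting tool, the handling of strand and multiply mapped reads, and the annotation release are not given in the sources used here. Positions were those of the table, and 32 of the 33 genes had the same span in GENCODE 29 (MT1A was wider).

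Counts were tested in R 4.3.3 with edgeR 4.0.16 (genes kept by filterByExpr at a minimum count of 10, TMM scaling, the quasi-likelihood functions glmQLFit and glmQLFTest, no term but the group, two-sided, Benjamini-Hochberg adjustment over 15055 genes). CPM used TMM library sizes, and the SE was derived from the F statistic. SLC39A1 was fitted but is given without a p. An exact permutation test of 3 against 3 values cannot go below p = 0.1 and was not used. Alternatives were RLE normalization, upper-quartile normalization, DESeq2 1.42.0, no filter, a mean count of at least 50, limma 3.58.1 on log2(FPKM + 1) of genes with an FPKM of at least 1 in 3 libraries, the replicate number as a block, and dropping each library in turn. The fit was tested on simulated data. Replicate pairs within a group differed by more than the sampling noise, so each library was counted as 1 sample.

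The genes and lists were chosen with earlier results of these data known. The text gives in full SLC39A1, MTF1, SLC30A1, MT2A, MT1X and MT1E and any other of the 33 genes with an unadjusted p under 0.05 or groups that did not overlap, and the rest by value. Genes of the lists are named with an unadjusted p under 0.05, with groups that did not overlap, or as the highest 3 in CPM. Promoters and the microRNA came from RefSeq (GRCh38.p14), where 25 of the 33 genes had a promoter. Intervals cover counting error and the spread between libraries, and the limit of 3 counts covers counting error only, as the reads carry no molecular identifiers.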

Additional observations from a re-analysis of the deposited data

How the results depend on the processing

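SLC39A1 chose the group and is given without a call. Of the zinc genes tested besides it, 0 were called in any of the 13 alternatives. Calls over all genes ran from 4 to 28 (DESeq2, 28). In all, 280 values of single zinc genes kept their direction and side of the threshold and 29 changed sign, with none of those 29 past the threshold. The count of called genes in the surrounding lists was 3 by DESeq2 and 0 otherwise, the other settings for that count being chosen after seeing the data. SLC39A1 was -1.21 by limma on log2(FPKM + 1), against -1.45 in the main fit, and -1.57 to -1.33 without each library. Why limma gave a smaller fold was not tested. MT1E became 0.015 with upper-quartile normalization, 0.0062 without a filter, 0.00068 with a mean count of at least 50, 0.025 by limma and 0.0018 with the replicate block. By limma SLC39A11, SLC30A1 and MT1A were 0.0096, 0.0093 and 0.014. The cause was not tested. Leaving out each library gave -0.15 to 0.17 for MT1E, -0.23 to 0.092 for SLC39A11, -0.074 to 0.041 for SLC30A1, -0.15 to 0.11 for MT1A, -0.18 to 0.034 for SLC39A9, -0.027 to 0.039 for SLC30A7, -0.12 to 0.046 for SLC30A10, -0.093 to 0.038 for MT1X, -0.00049 to 0.22 for SLC39A7, -0.18 to 0.024 for SLC39A10, -0.051 to 0.24 for SLC30A9 and -0.24 to 0.081 for MT2A. Same-numbered libraries did not deviate together (correlations of -0.036, -0.023 and -0.031). Whether equal numbers stand for a shared culture or batch is not given in the sources used here, and the correlations cannot exclude it. With the replicate block SLC39A1 was -1.44. In that setting 4 genes were called in all, and the zinc genes tested besides SLC39A1 had 0 calls. With 3 libraries a group, a change may be missed in well-counted genes too, and more so at few reads, as in SLC30A3 or MT1M. HSPA1A, at a log2 fold change of -0.95, was not called by edgeR (adjusted p = 0.604). Zinc itself, protein levels and transport were not measured.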
